A study of Mus musculus with 6 samples.

Results

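The genes described here are 37 mouse genes for lysosomal enzymes, lysosomal membrane proteins and their regulators, taken as a named list from the 32371 genes of a table of RNA-Seq read counts. The list is one of names, with no threshold on a measured value, but it and its classes were drawn up with earlier results of these data known. All 37 had enough counts to be tested, among 18138 genes that did. The list was set in 3 classes by where these genes are known to be expressed: 3 genes restricted to myeloid and related blood cells (Ctss, Cd68 and Laptm5), 3 genes widely expressed but high in myeloid cells (Ctsc, Ctsh and Ctsz), and the remaining 31, called widely expressed below. Ctsk, a protease best known from osteoclasts, stands in the last class only because it fits neither of the others, and Grn, which is high in microglia, could also stand among the enriched genes.

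Adult C57BL/6J mice received an intravitreal injection of AAV2-GFP as control (3 libraries) or of AAV2-Ezh2-Y726D (3 libraries), and the optic nerve was crushed 2 weeks later in both groups. Ezh2 is the subunit of a Polycomb repressive complex that methylates histone H3, and Y726D is a substitution that removes this activity. Retinas were collected 3 days after the crush, and dissociated cells positive for CD90.2 and negative for a dye of dead cells were sorted to enrich retinal ganglion cells (RGCs). CD90.2 is the product of Thy1 and is also carried by T cells. Every library therefore came from an injured and injected eye, no uncrushed or uninjected eye was compared here, and the sources used here do not say how many mice entered each library or which promoter drove the transgene. The comparison asks how the RNA of these genes differed with Ezh2-Y726D in place of GFP.

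Ezh2 itself was measured first. Its level was 22.7, 23.9 and 26.4 CPM (a gene's counts scaled to a common library total, with library sizes adjusted by the trimmed mean of M-values, TMM) in GFP replicates 1, 2 and 3 and 65.2, 65.6 and 65.2 CPM in Ezh2-Y726D replicates 1, 2 and 3, a log2 fold change of 1.46 (SE 0.061, adjusted P = 3.01e-16, edgeR's quasi-likelihood test, adjusted by the method of Benjamini and Hochberg), and counts per gene cannot tell the transgene from the mouse's own gene. Libraries held 9333244 to 23782520 counts. One ribosomal RNA gene, CT010467.1, made up 50.9% of GFP replicate 2, 52.2% of GFP replicate 3 and 2.55% to 16.1% of the other 4 libraries, which leaves those GFP libraries with 5745352 and 4460732 counts of other genes, the fewest of the 6. Where leaving out both libraries changed a call, that is given beside it. The RGC gene Thy1 was at 99.7 to 122 CPM, and Rbpms, another RGC gene, at 12.4 to 16.9 CPM. The Müller glia gene Glul was at 2740 to 3027 CPM, so RNA of other retinal cells was present in every library. Myeloid RNA was present as well. In bulk RNA, fewer cells of a type and less RNA of a gene per cell cannot be told apart, and this holds for every result that follows.

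Lysosomes are acidic organelles in which proteins, glycans and lipids are broken down by hydrolases, among them the cathepsin proteases. Most of these enzymes are made in every cell, but phagocytes, which digest what they engulf, carry far more of them and also express a few that other cells lack. Transcription of many lysosomal genes is promoted by TFEB and its relatives, which bind a palindromic element in their promoters, whereas myeloid genes are promoted by PU.1, the product of Spi1.

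Of the 37 genes, 22 were lower with Ezh2-Y726D, 2 were higher and 13 did not pass the test at an adjusted P under 0.05 (edgeR's quasi-likelihood test, adjusted by Benjamini-Hochberg over all genes tested). Across all genes tested, 13.6% were lower and 13.9% higher by the same rule. Differentially expressed genes (DEGs), which also had to change by more than 1.5-fold, numbered 11 among the 37, all of them lower: Ctsb, Ctsd, Ctss, Ctsz, Laptm5, Cd68, Gusb, Lipa, Npc2, Man2b1 and Grn. Of all genes tested, 5.5% were lower DEGs and 2.52% were higher DEGs. The median log2 fold change of the 37 genes was -0.32, between -1.29 for Cd68 and 0.19 for Mcoln1, beside a median of 0.00 over all genes tested. These changes are relative to TMM scaling: on raw library totals, which the ribosomal RNA gene inflates in the GFP group, the median over all genes moved to 0.49, that of the 37 genes to 0.18, and 17 of the 37 changed sign. For 23 of the 37 genes every Ezh2-Y726D library was below every GFP library, for 3 every Ezh2-Y726D library was above, and for 11 the groups overlapped. The same separation was seen below GFP in 18.9% and above GFP in 19.7% of all genes tested. Without the GFP libraries rich in ribosomal RNA, which leaves 1 GFP library whose spread is assumed to be that of the other group, 9 of the 37 were lower DEGs, the median was -0.40, and Ctsb (-0.57) and Man2b1 (-0.55) fell under the fold change threshold.

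**Figure D1:**
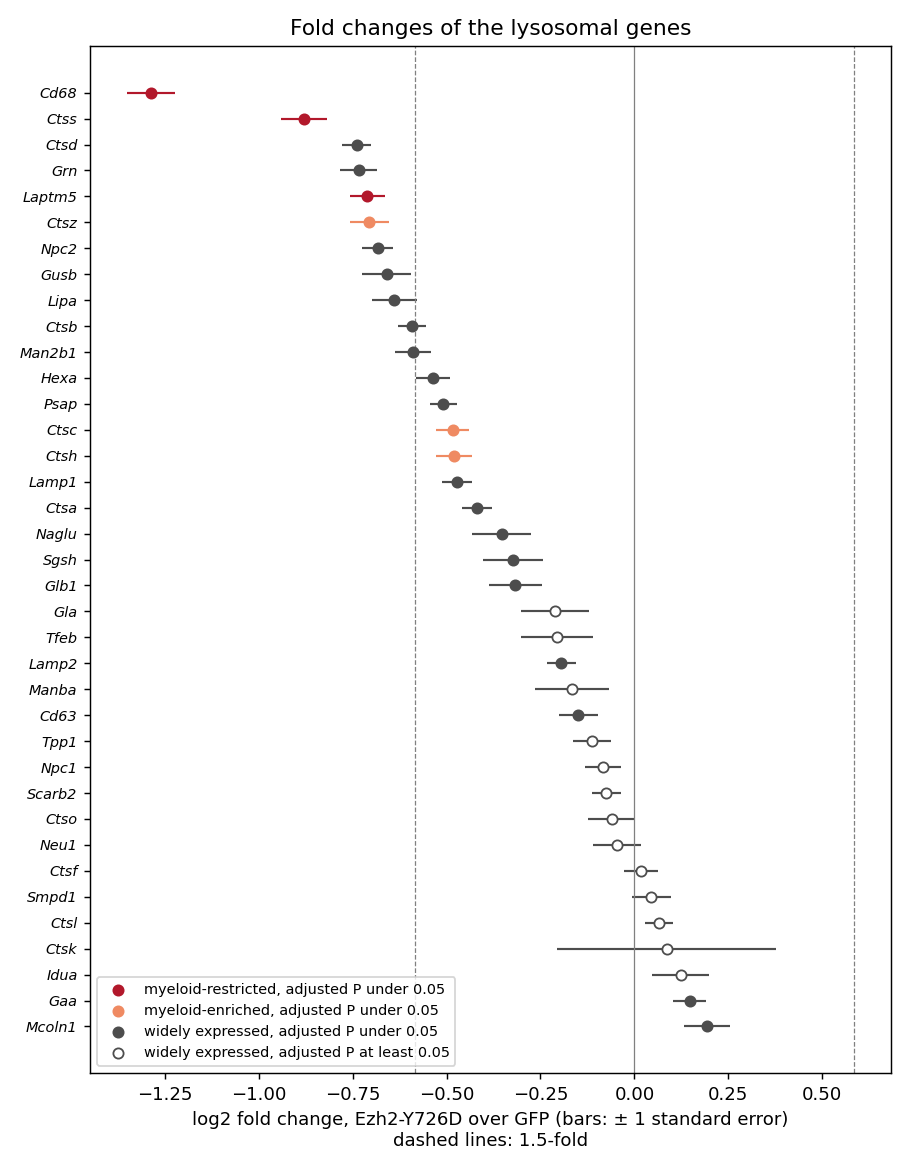
Log2 fold change of each of the 37 genes, Ezh2-Y726D over GFP, on the x axis, with genes in order of fold change and coloured by class. Filled points had an adjusted P under 0.05 (edgeR's quasi-likelihood test) and open points did not. Points are edgeR estimates, bars 1 standard error and dashed lines a 1.5-fold change. Most points lie left of 0, Cd68 lies farthest left at -1.29, and Mcoln1, at 0.19, lies farthest right.

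The summed level of the 37 genes was 6062, 6167 and 6182 CPM in the GFP libraries and 4453, 4582 and 4513 CPM in the Ezh2-Y726D libraries, a ratio of means of 0.736. By class, the ratio was 0.544 for the sum of the myeloid-restricted genes, 0.671 for the myeloid-enriched genes and 0.764 for the widely expressed genes. With Grn counted as enriched instead, the last 2 ratios were 0.648 and 0.770. Of the marker lists of cells other than RGCs, some were lower with Ezh2-Y726D and others were not. Of 12 pan-myeloid markers (Ptprc, Csf1r, Aif1, Fcer1g, Tyrobp, Itgam, Cd14, Spi1, Lyz2, Cd53, Cybb and Ncf1), 10 were lower and 0 higher (edgeR's quasi-likelihood test), with a median log2 fold change of -0.90, and their summed level was 1054 to 1173 CPM with GFP and 427 to 506 CPM with Ezh2-Y726D. Other lists moved in both directions. Lower were all 5 cone markers (-0.61, summing to 344 to 360 CPM with GFP and 228 to 238 CPM with Ezh2-Y726D), 5 of 6 bipolar cell markers with 1 higher (-0.39, sums of 960 to 977 CPM and 791 to 815 CPM) and 4 of 5 pericyte markers (-0.38, sums of 193 to 205 CPM and 153 to 166 CPM), with 2 of 5 endothelial (-0.17), 2 of 3 tested astrocyte (-0.29) and 2 of 4 B cell markers (-0.82, sums of 3.98 to 5.16 CPM and 2.07 to 3.38 CPM). Higher were all 6 amacrine cell markers (0.58), while 0 of 6 rod markers were lower and 2 higher (0.07), and 1 of 6 Müller glia markers was lower and 2 higher (-0.05). The part of any of these cells in the lower levels of lysosomal genes was not tested.

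The promoters of 5 genes are shown because the comparisons turn on them: Ctss, Cd68 and Laptm5 are the myeloid-restricted genes and all fell, Ctsd is the widely expressed gene with the lowest fold change, and Mcoln1 has the highest fold change. This order holds with all libraries. When single libraries were left out, Grn reached -0.80 and Ctsd no lower than -0.76, and the scarce Ctsk reached 0.31 and Mcoln1 0.22. Each promoter is the 300 bases from 250 before to 50 after the start of the gene in RefSeq on GRCm38.p6, read 5′ to 3′ on the strand of the gene. Ctss lies at chr3:95526536-95526835 on the plus strand, Cd68 at chr11:69666121-69666420 on the minus strand, Laptm5 at chr4:130913066-130913365 on the plus strand, Ctsd at chr7:142387778-142388077 on the minus strand and Mcoln1 at chr8:3500269-3500568 on the plus strand. Capitals mark the matches to CACGTG, the core of the element bound by TFEB, or its longer form TCACGTGA, and to GAGGAA, the core of the element bound by PU.1, or its longer form GAGGAAGT. Both strands were searched, so TTCCTC and ACTTCCTC are the same motifs on the other strand, and each longer form holds the shorter.
Ctss: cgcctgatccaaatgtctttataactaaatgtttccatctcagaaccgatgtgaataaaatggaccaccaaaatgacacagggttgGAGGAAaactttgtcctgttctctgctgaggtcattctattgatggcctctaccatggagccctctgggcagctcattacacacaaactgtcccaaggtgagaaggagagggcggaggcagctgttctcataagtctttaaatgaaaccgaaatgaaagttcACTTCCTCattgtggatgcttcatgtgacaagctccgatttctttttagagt
Cd68: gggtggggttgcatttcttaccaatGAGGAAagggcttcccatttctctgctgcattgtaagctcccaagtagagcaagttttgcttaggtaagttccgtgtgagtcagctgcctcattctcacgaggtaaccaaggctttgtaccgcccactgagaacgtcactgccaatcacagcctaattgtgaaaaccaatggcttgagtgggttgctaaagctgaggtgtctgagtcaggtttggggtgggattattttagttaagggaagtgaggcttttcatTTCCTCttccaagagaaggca
Laptm5: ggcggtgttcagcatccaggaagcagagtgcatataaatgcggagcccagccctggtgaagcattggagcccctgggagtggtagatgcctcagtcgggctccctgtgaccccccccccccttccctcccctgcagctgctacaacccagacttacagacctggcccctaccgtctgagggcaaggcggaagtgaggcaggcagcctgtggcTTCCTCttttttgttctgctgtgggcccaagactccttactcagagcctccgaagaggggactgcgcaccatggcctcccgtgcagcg
Ctsd: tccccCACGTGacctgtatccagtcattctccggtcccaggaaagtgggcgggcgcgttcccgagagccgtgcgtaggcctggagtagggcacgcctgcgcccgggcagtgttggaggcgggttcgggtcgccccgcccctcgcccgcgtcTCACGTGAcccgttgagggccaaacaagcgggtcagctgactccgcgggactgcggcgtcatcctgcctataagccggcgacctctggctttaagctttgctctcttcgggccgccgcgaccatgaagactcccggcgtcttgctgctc
Mcoln1: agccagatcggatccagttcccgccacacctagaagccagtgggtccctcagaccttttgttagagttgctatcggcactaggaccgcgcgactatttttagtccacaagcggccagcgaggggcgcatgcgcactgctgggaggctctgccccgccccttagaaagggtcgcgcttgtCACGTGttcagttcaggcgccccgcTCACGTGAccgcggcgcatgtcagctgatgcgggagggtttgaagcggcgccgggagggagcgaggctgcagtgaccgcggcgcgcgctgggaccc

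As printed, the 3 myeloid-restricted genes held GAGGAA and no CACGTG, whereas Ctsd and Mcoln1 held CACGTG and TCACGTGA and no GAGGAA. These printed promoters do not stand for the classes. Across the list, most genes with GAGGAA were widely expressed, Gla and Glb1 held both motifs, and the enriched Ctsz held neither. Promoters of 34 of the 37 genes were in the RefSeq table; the others are Ctsb, Ctsh and Npc1. CACGTG stood in 11 of these 34 (32.4%), beside 8.09% of the 27025 genes in the table and 7.15% of its 32851 promoters of the same length, where a gene with several promoters counts if any matches: Ctsa, Ctsd, Ctsf, Ctsl, Lamp1, Gaa, Gla, Glb1, Naglu, Sgsh and Mcoln1. TCACGTGA stood in 4 (11.8%), namely Ctsa, Ctsd, Gla and Mcoln1, beside 1.12% of genes and 0.974% of promoters. GAGGAA stood in 16 (47.1%), beside 31.3% of genes and 28.3% of promoters, and GAGGAAGT in Ctsc, Ctss, Gla and Gusb (11.8%), beside 3.69% of genes and 3.2% of promoters. The 16 were Ctsc, Ctsk, Ctss, Lamp2, Laptm5, Cd63, Cd68, Gla, Glb1, Gusb, Lipa, Psap, Smpd1, Man2b1, Manba and Grn. The 34 genes have 38 promoters in the table. Of the 10 lower DEGs with a promoter in the table, 1 held CACGTG and 7 held GAGGAA. Of the other 24 genes, 10 held CACGTG and 9 held GAGGAA. A match is a description of the letters in this window and was not tested against binding.

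Cysteine cathepsins are the largest group of lysosomal proteases. Of 9 measured, 5 fell (Ctsb, Ctsc, Ctsh, Ctss and Ctsz), 0 rose and 4 did not pass the test (edgeR's quasi-likelihood test), and their median log2 fold change was -0.48. Ctss (chr3:95526786-95556403, GRCm38) encodes cathepsin S, which trims the invariant chain of MHC class II in antigen-presenting cells. It was at 423, 498 and 492 CPM in GFP replicates 1, 2 and 3 and at 221, 272 and 272 CPM in Ezh2-Y726D replicates 1, 2 and 3, so it was 45.6% lower, with no overlap and with replicate 1 lowest in both groups. The log2 fold change of Ctss was -0.88 (SE 0.061, adjusted P = 6.59e-12, edgeR). Left with GFP replicate 1 alone as control, it was -0.73.

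Ctsz (chr2:174427493-174439039) encodes cathepsin Z, a carboxypeptidase high in microglia and macrophages. Its levels were 127, 145 and 146 CPM with GFP and 79.0, 87.2 and 86.7 CPM with Ezh2-Y726D (log2 fold change -0.71, SE 0.051, edgeR adjusted P = 1.42e-11). As with Ctss, the groups stood apart and replicate 1 was the lowest of each. Ctsb (chr14:63122462-63145923), for cathepsin B, an abundant protease of most cells, was at 814, 831 and 829.9 CPM against 541, 556 and 544 CPM (-0.59, SE 0.037, edgeR adjusted P = 8.83e-13). The spread within each Ctsb group was small beside the gap, but 12.8% of its exonic bases overlap Fdft1.

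Ctsc and Ctsh, for the aminopeptidases cathepsin C and cathepsin H, fell by less than 1.5-fold. Cathepsin C activates the serine proteases of granules in immune cells. Ctsc was at 131, 138 and 143 CPM with GFP and 94.4, 97.1 and 100.4 CPM with Ezh2-Y726D (-0.48, SE 0.044, edgeR adjusted P = 9.35e-10). Ctsh was at 88.7, 93.9 and 92.2 CPM against 63.0, 68.4 and 64.7 CPM (-0.48, SE 0.048, edgeR adjusted P = 6.23e-09). Neither gene overlapped between the groups.

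Ctsl, for cathepsin L, a protease of most cells, was not lower, unlike the more abundant Ctsb and Ctss. The difference between these genes was not tested. Ctsl stood at 231, 225 and 225 CPM with GFP and at 239, 235 and 239.6 CPM with Ezh2-Y726D, a log2 fold change of 0.07 (SE 0.038, edgeR adjusted P = 0.231). All Ctsl values with Ezh2-Y726D were above those with GFP but the difference did not pass the test, and 26.8% of its exonic bases overlap Gm47123. Ctsf, a gene for a cathepsin of neurons and other cells, had a log2 fold change of 0.02 (adjusted P = 0.822, edgeR) and Ctso one of -0.06 (adjusted P = 0.544, edgeR). Ctsk was nearly absent, with 8 to 35 counts per library and 1.02 to 1.94 CPM, and its estimate of 0.09 had an SE of 0.29.

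The other proteases of the list are Ctsd, an aspartic protease, Ctsa, a serine carboxypeptidase that also protects the enzymes of Glb1 and Neu1, and Tpp1, a tripeptidyl peptidase. Ctsd (chr7:142375911-142388038), for cathepsin D, was at 398, 390.4 and 398 CPM with GFP and 232, 243 and 235 CPM with Ezh2-Y726D. It was 40.1% lower with a log2 fold change of -0.74 (SE 0.039, edgeR adjusted P = 2.69e-14), and 34.4% of its exonic bases overlap Gm49369, so reads of the pair may have been split or left uncounted. No value of Ctsd overlapped between the groups. Ctsa fell by 0.42 on the log2 scale (SE 0.040, edgeR adjusted P = 3.25e-09), with 148 to 153 CPM against 111 to 116 CPM, and 17.4% of its exonic bases overlap Pltp. Tpp1, at 72.9 to 80.0 CPM against 67.4 to 73.3 CPM, overlapped and did not pass (-0.11, SE 0.051, edgeR adjusted P = 0.105). It did pass with the replicate number as a block, an alternative given at the end.

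Glycan-degrading enzymes take apart glycoproteins, glycosaminoglycans, glycogen and glycolipids stepwise, most of them by removing a sugar and Sgsh by removing a sulfate group. Of 11 measured, 6 fell (Gusb, Hexa, Man2b1, Glb1, Naglu and Sgsh), 1 rose (Gaa) and 4 did not pass (edgeR), with a median log2 fold change of -0.32. Gusb (chr5:129989011-130003049), for beta-glucuronidase, was at 34.8, 31.3 and 37.2 CPM with GFP and 21.2, 22.5 and 21.7 CPM with Ezh2-Y726D. Its log2 fold change was -0.66 (SE 0.066, edgeR adjusted P = 6.4e-09) and its groups did not overlap. Man2b1 (chr8:85083270-85098282), for an alpha-mannosidase, was at 94.3, 101.5 and 96.7 CPM against 64.9, 65.9 and 62.8 CPM (-0.59, SE 0.047, edgeR adjusted P = 8.29e-11). It lies so near the fold change threshold that it was a DEG in 4 of the 6 fits that each left out 1 library; its fall passed the adjusted P in all 6, and the other 10 lower DEGs stayed DEGs in all 6.

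Hexa encodes the alpha subunit of beta-hexosaminidase, which degrades the ganglioside GM2. It was at 99.6, 96.9 and 100.3 CPM with GFP and 66.0, 70.7 and 68.2 CPM with Ezh2-Y726D, a log2 fold change of -0.54 (SE 0.046, edgeR adjusted P = 3.3e-10). No Ezh2-Y726D library of Hexa reached the lowest GFP library, and 12.8% of its exonic bases overlap Tmem202.

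The enzymes with smaller changes act on several substrates. Glb1, the beta-galactosidase, had a log2 fold change of -0.32 (edgeR adjusted P = 8.28e-04). Naglu and Sgsh, which act in turn on heparan sulfate, had -0.35 (edgeR adjusted P = 9.37e-04) and -0.32 (edgeR adjusted P = 0.00271), but without GFP replicate 1 neither passed (Naglu -0.24, adjusted P = 0.107; Sgsh -0.21, adjusted P = 0.178). Gaa, the acid alpha-glucosidase of glycogen breakdown, was higher, at 166, 150.5 and 145 CPM with GFP and 174, 173 and 169.7 CPM with Ezh2-Y726D (0.15, SE 0.044, edgeR adjusted P = 0.0118). The gap in Gaa was narrow beside the spread of the GFP libraries: it did not pass without GFP replicate 2 (adjusted P = 0.0732), without GFP replicate 3 (adjusted P = 0.082) or without both (0.05, adjusted P = 0.534). Gla, Idua, Neu1 and Manba did not pass, with log2 fold changes from -0.21 (Gla) to 0.12 (Idua).

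Lysosomal lipids are handled by the cholesteryl ester hydrolase of Lipa, the sphingomyelinase of Smpd1, the saposins cut from the precursor of Psap, and the cholesterol carriers Npc2, in the lumen, and Npc1, in the membrane. Of these 5 genes, 3 fell (Lipa, Npc2 and Psap), 0 rose and 2 did not pass (edgeR), with a median log2 fold change of -0.51. Npc2 (chr12:84754562-84773152) was at 139, 138 and 141 CPM with GFP and 85.4, 86.4 and 87.9 CPM with Ezh2-Y726D, 37.7% lower (-0.68, SE 0.041, edgeR adjusted P = 3.2e-13). Npc1, its partner in moving cholesterol out of the lysosome, was at 101, 97.8 and 114 CPM against 99.5, 97.5 and 96.3 CPM (-0.08, SE 0.048, edgeR adjusted P = 0.219). The groups separated for Npc2 and overlapped for Npc1. The difference between them was not tested.

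Lipa (chr19:34492318-34527474) was at 38.5, 40.1 and 40.8 CPM with GFP and 24.8, 25.5 and 25.6 CPM with Ezh2-Y726D (-0.64, SE 0.060, edgeR adjusted P = 1.87e-09). Psap gave more CPM than any other of the 37 genes in all 6 libraries, at 1417, 1401 and 1374 CPM with GFP and 985, 995 and 968 CPM with Ezh2-Y726D (-0.51, SE 0.037, edgeR adjusted P = 1.33e-11). Both genes separated without overlap, and Psap, 29.7% lower, stayed under the fold change threshold. Smpd1 did not pass (0.05, SE 0.052, edgeR adjusted P = 0.594), and its estimate was -0.061 without the GFP libraries rich in ribosomal RNA.

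Lysosomal membrane proteins form the glycan coat of the organelle (Lamp1 and Lamp2), sort enzymes to it (Scarb2, the receptor of glucocerebrosidase), release its calcium (Mcoln1) or mark it in particular cells (Cd68 and Laptm5 in myeloid cells). Of 7 measured, 5 fell, 1 rose and 1 did not pass (edgeR), with a median of -0.19, and in all 7 the groups did not overlap. Over all genes tested, the groups stood apart below GFP in 18.9% and above GFP in 19.7%. Cd68 (chr11:69664213-69666153), a heavily glycosylated protein of macrophage lysosomes, was at 42.1, 45.0 and 46.9 CPM with GFP and 17.4, 18.4 and 18.2 CPM with Ezh2-Y726D. It was 59.0% lower (log2 fold change -1.29, SE 0.064, edgeR adjusted P = 1.05e-14), and only 130 of the 18138 genes tested, Cd68 included, had a log2 fold change as low. Cd68 was also the single gene of the 37 that remained a DEG at a threshold of 2-fold.

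Laptm5 (chr4:130913125-130936141), a lysosomal transmembrane protein of blood cells, was at 114, 119.8 and 112 CPM with GFP and 67.1, 71.1 and 72.7 CPM with Ezh2-Y726D (-0.71, SE 0.046, edgeR adjusted P = 1.49e-12). Lamp1, carried by lysosomes of nearly all cells, was at 268, 287 and 286 CPM against 196, 204 and 204 CPM (-0.47, SE 0.041, edgeR adjusted P = 3.62e-10). Lamp2, whose isoforms cannot be told apart in counts per gene, was at 166, 166 and 169.8 CPM against 143, 145 and 150.0 CPM (-0.19, SE 0.039, edgeR adjusted P = 2.89e-04). The fall was 38.9% for Laptm5, 27.9% for Lamp1 and 12.6% for Lamp2, and each was larger than the spread within groups.

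Cd63, a tetraspanin of late endosomes and exosomes, was at 64.8, 59.6 and 64.4 CPM with GFP and 56.9, 58.9 and 55.5 CPM with Ezh2-Y726D (-0.15, SE 0.052, edgeR adjusted P = 0.0307). The nearest libraries of the 2 groups almost met, and the call did not hold without GFP replicate 1 or 3 or without Ezh2-Y726D replicate 1 or 3, when the adjusted P was 0.225, 0.0646, 0.0597 and 0.139. Mcoln1, the calcium channel that signals to TFEB, was at 36.3, 35.1 and 35.8 CPM with GFP and 39.3, 43.7 and 40.4 CPM with Ezh2-Y726D (0.19, SE 0.060, edgeR adjusted P = 0.0161). Every Mcoln1 value with Ezh2-Y726D was above those with GFP, but the adjusted P was 0.053, 0.0515 and 0.102 without GFP replicate 1, GFP replicate 2 and Ezh2-Y726D replicate 2, and 0.0858 without the GFP libraries rich in ribosomal RNA. Scarb2 did not pass (-0.08, SE 0.039, edgeR adjusted P = 0.167).

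Grn and Tfeb stand apart from enzymes and membrane proteins. Grn (chr11:102430315-102437048) encodes progranulin, a secreted protein that reaches the lysosome and is high in microglia as well as present in neurons. It was at 151, 167 and 170.0 CPM with GFP and 90.7, 97.1 and 101.9 CPM with Ezh2-Y726D, 39.9% lower (-0.73, SE 0.049, edgeR adjusted P = 2.45e-12), with no overlap. Tfeb, the transcription factor named above, was at 13.8, 13.2 and 12.1 CPM against 12.9, 10.9 and 10.8 CPM. Its groups overlapped, and its log2 fold change of -0.21 had an SE of 0.096 and did not pass (edgeR adjusted P = 0.121), though it passed without Ezh2-Y726D replicate 1 (-0.30, adjusted P = 0.0273).

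**Figure D2:**
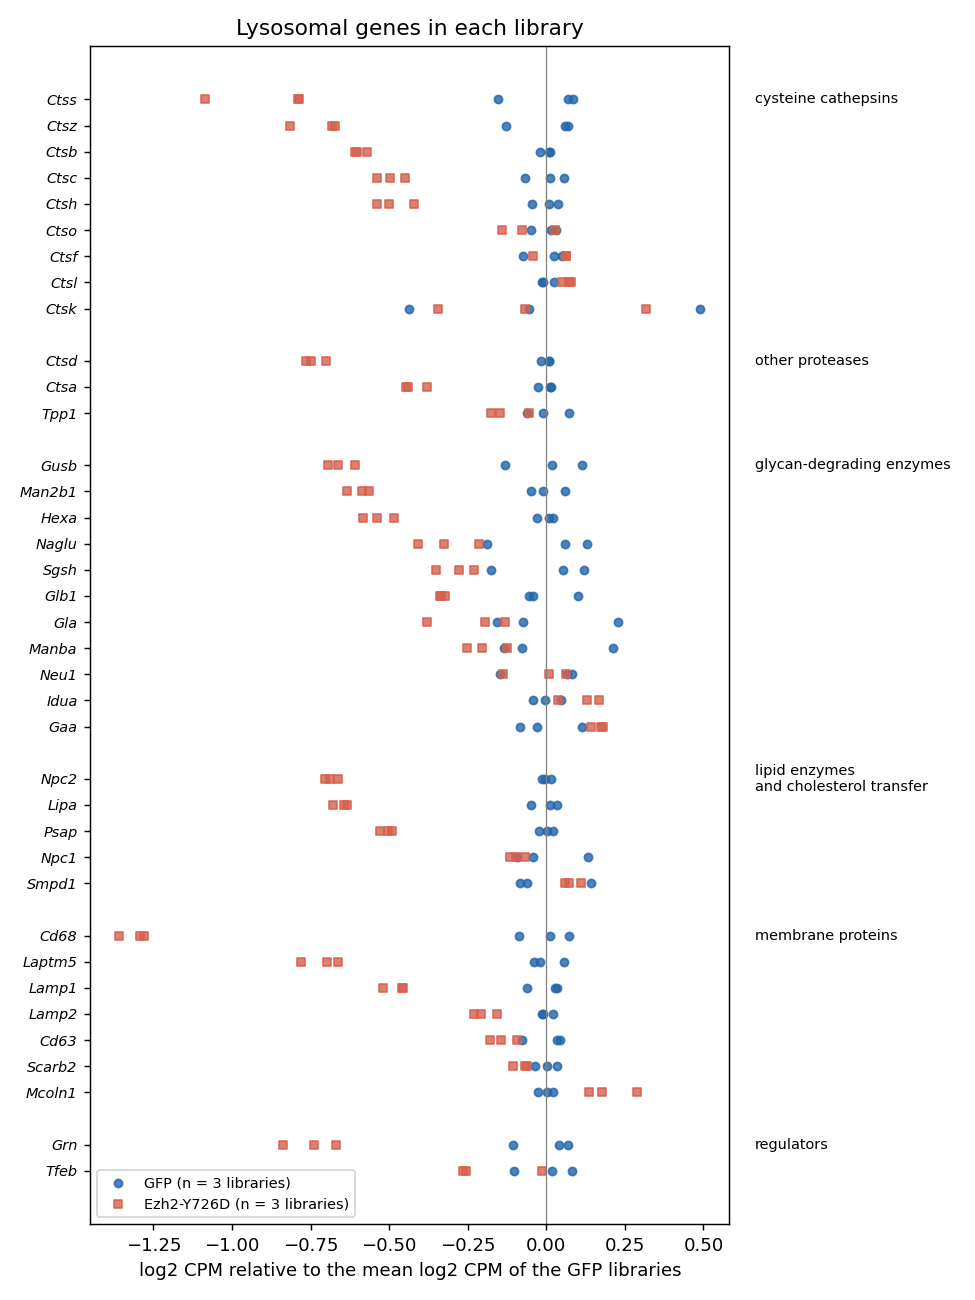
Level of each of the 37 genes in each library (rows, by role), as log2 CPM after TMM scaling minus the mean log2 CPM of the 3 GFP libraries (x axis). Circles are GFP libraries and squares Ezh2-Y726D libraries; the squares of 23 genes, Ctss, Cd68, Grn, Ctsd and Npc2 among them, lie left of all circles, whereas those of Tfeb and Npc1 mix with the circles.

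Levels of different genes were set in order per kilobase of exon, from GENCODE vM21 gene models, as mean CPM per kilobase. Psap was first with 509 in the GFP group, followed by Ctss (347), Ctsd (168), Ctsb (136), Lamp1 (105) and Ctsz (96.7), and these 6 kept their places in the Ezh2-Y726D group, where Psap stood at 358 and Ctss at 188. Cd68 moved from place 10 (35.5) to place 21 (14.3). Hexa, Scarb2 and Grn, in places 7 to 9, had 49.6, 47.0 and 46.8 CPM per kilobase, and Grn and Scarb2 lay closer together than the spread between GFP libraries of Grn. Tfeb (2.29), Manba (1.74) and Ctsk (0.943) were the lowest of the 37 with GFP. Of the restricted genes, Ctss was in place 2 of both groups, and Laptm5 in places 14 and 15.

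**Figure D3:**
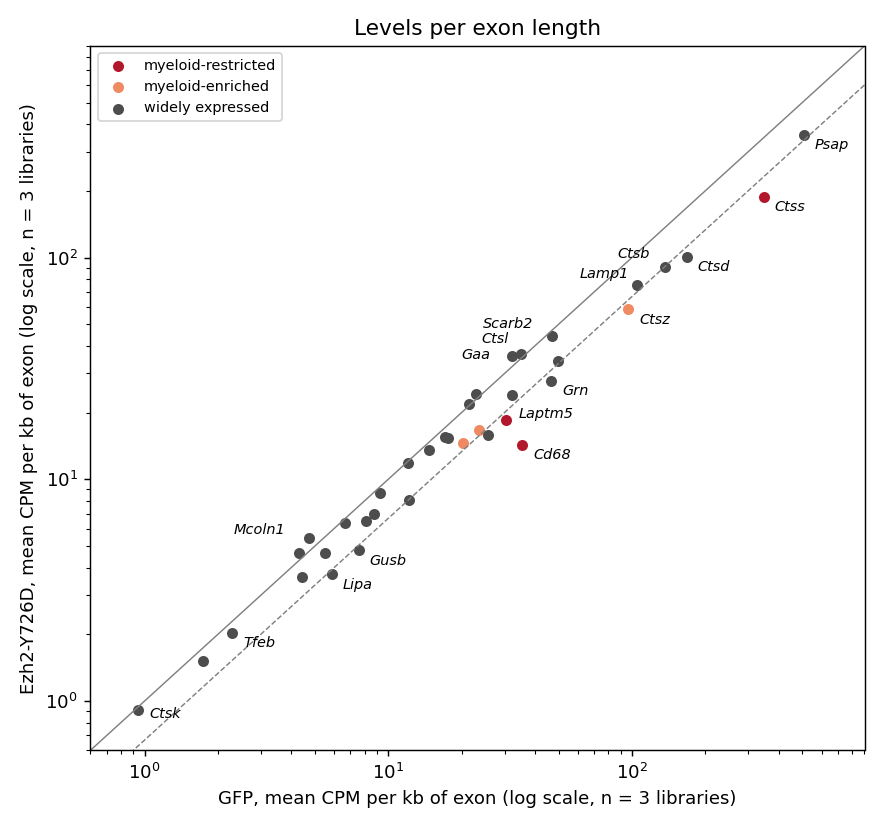
Mean CPM per kilobase of exon of each of the 37 genes in the GFP group (x axis) and the Ezh2-Y726D group (y axis), both on log axes, coloured by class, with a solid line of equal level and a dashed line at a 1.5-fold lower level. Cd68, at 35.5 against 14.3, lies farthest below the line.

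The classes were set beside the markers of cell types. The median log2 fold change was -0.88 for the myeloid-restricted genes, -0.48 for the myeloid-enriched genes and -0.21 for the widely expressed genes, beside -0.90 for the 12 pan-myeloid markers, which ran from -2.10 (Lyz2, lysozyme) to -0.08 (Itgam). Itgam is an uncertain end of that range, at 6.84 to 9.79 CPM and with 68.7% of its exonic bases overlapping Gm49368. A difference between the classes was not tested, and their members overlapped: the widely expressed Ctsd (-0.74) and Grn (-0.73) had lower values than the restricted Laptm5 (-0.71) and the enriched Ctsz (-0.71). Only Cd68 fell by more than the median of these markers, and the other 36 genes fell by less or did not fall. All 3 restricted and all 3 enriched genes fell. Of the 31 widely expressed genes, 16 fell, 2 rose and 13 did not pass, and 7 were lower DEGs (edgeR). The shares over all genes tested were 13.6% lower, 13.9% higher and 5.5% lower DEGs. Without the restricted genes, 8 of 34 were lower DEGs and 19 fell. With Ctss, Cd68 and Laptm5 set aside, the median of the 34 was -0.26. With Grn counted as enriched, 6 of 30 widely expressed genes were lower DEGs and 15 fell, with a median of -0.20, and the median of the 4 enriched genes was -0.59.

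Within groups, the libraries differed in myeloid RNA too. Summed pan-myeloid markers were at 1054, 1173 and 1125.5 CPM with GFP and at 427, 498 and 506 CPM with Ezh2-Y726D, so replicate 1 was the lowest in each group. The restricted genes summed to 578, 663 and 651 CPM and 306, 361 and 363 CPM in the same order, again with replicate 1 lowest. Most of that sum is Ctss, and Laptm5 was lowest in GFP replicate 3. The widely expressed genes summed to 5137, 5127 and 5150.0 CPM and to 3911, 3968 and 3898 CPM, and replicate 1 was the lowest of neither group. Lyz2 alone made up much of the marker sum, and without it the sum was 582 to 649 CPM with GFP and 323 to 383 CPM with Ezh2-Y726D, a ratio of 0.587.

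Markers of particular blood cells did not all move alike. Of 10 microglial markers, 4 fell and 2 rose, with a median of -0.15 and a summed level of 297 to 327 CPM with GFP and 244 to 288 CPM with Ezh2-Y726D (edgeR). Of 9 markers of infiltrating and perivascular macrophages, 8 could be tested and 7 fell, with a median of -1.57 and sums of 190 to 210 CPM and 113 to 126 CPM; Cd163 was under 1 CPM in every library. Of 6 neutrophil markers, S100a8, S100a9, Ly6g and Retnlg were under 1 CPM in every library, Mmp9 stood at 31.2 to 39.7 CPM with GFP and 33.1 to 36.9 CPM with Ezh2-Y726D (-0.07, edgeR adjusted P = 0.512), and Csf3r, a receptor gene that monocytes also express, fell from 17.8 to 20.7 CPM to 11.1 to 12.6 CPM (-0.68, edgeR adjusted P = 2.83e-07). All 7 T cell markers fell, with a median of -0.76 and sums of 103 to 104 CPM and 56.6 to 64.9 CPM. RGC markers summed to 491 to 503 CPM and 467 to 504 CPM, with 1 of 10 lower and 2 higher, and Müller glia markers to 6457 to 6751 CPM and 6461 to 6732 CPM.

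**Figure D4:**
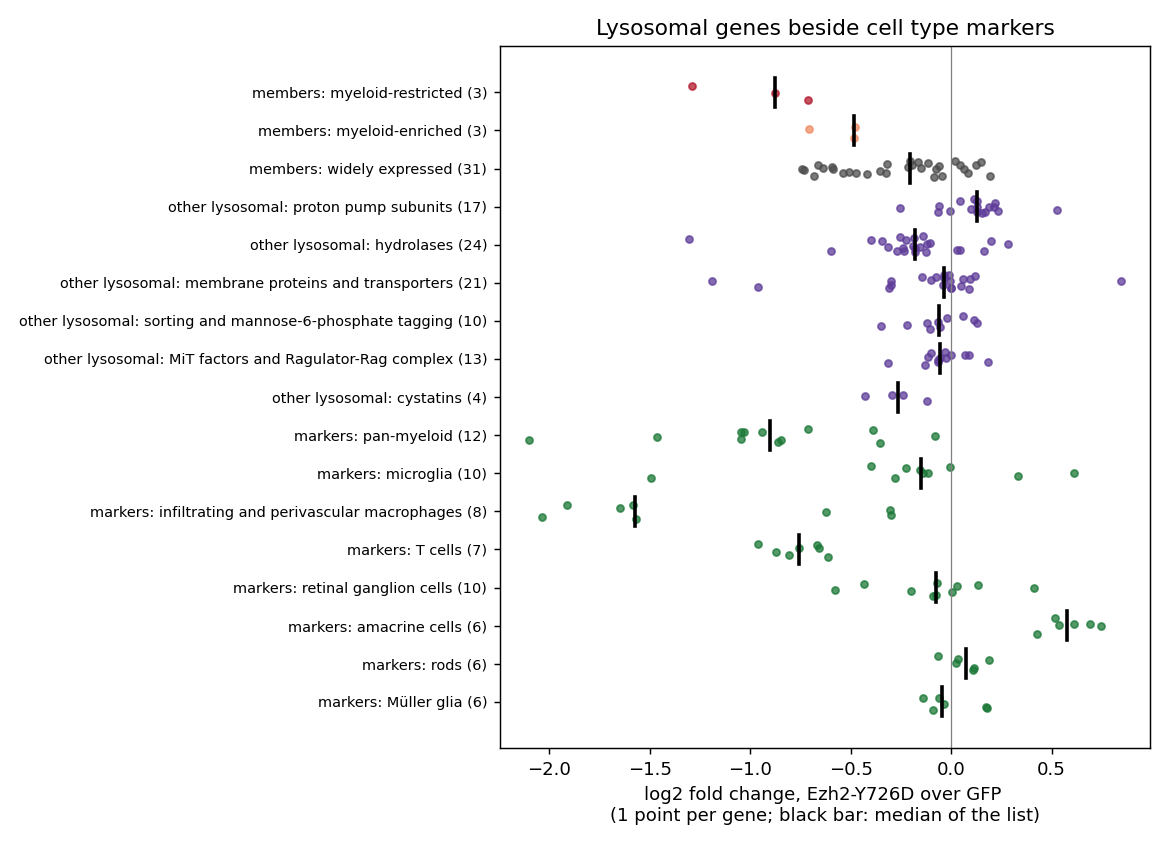
Log2 fold change, Ezh2-Y726D over GFP, of the 3 classes of lysosomal genes, of further lysosomal genes and of cell type markers, with 1 point per tested gene, the number of tested genes in brackets and a black bar at the median. The myeloid-restricted genes (-0.88) and the pan-myeloid markers (-0.90) have like medians, the widely expressed genes lie at -0.21 and the proton pump subunits at 0.13.

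The rest of the organelle was read from 92 further lysosomal genes, of which 89 could be tested. Of these, 24 were lower, 16 higher and 49 did not pass (edgeR's quasi-likelihood test), with 4 lower DEGs and 1 higher DEG and a median log2 fold change of -0.06. Over all genes tested the shares were 13.6% lower, 13.9% higher, 5.5% lower DEGs and 2.52% higher DEGs, so DEGs were no more frequent in this list than among all genes, and those named from it say nothing of the list. Without the GFP libraries rich in ribosomal RNA it held 5 lower DEGs. Subunits of the proton pump, which acidifies the lysosome and, in neurons, synaptic vesicles, went the other way from the 37 genes: of 17 tested, 10 rose and 1 fell (Atp6v0e, -0.25), and the median was 0.13. The highest of them was Atp6v1g2, a subunit form of neurons, at 36.9, 41.0 and 37.3 CPM with GFP and 52.6, 59.5 and 52.9 CPM with Ezh2-Y726D (0.53, SE 0.063, edgeR adjusted P = 1.26e-07). The summed pump genes stood at 2268, 2214 and 2139.6 CPM and at 2446, 2503 and 2398 CPM, a ratio of 1.11. Here no library of 1 group overlapped the other.

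Further hydrolases gave 11 lower and 2 higher of 24, with a median of -0.18, further membrane proteins and transporters 6 lower and 2 higher of 21 (-0.03), genes of enzyme sorting and mannose-6-phosphate tagging 3 lower and 1 higher of 10 (-0.06), and cystatins, which inhibit cathepsins, 2 lower of 4 (-0.27), all by edgeR. Among the relatives of Tfeb, the Ragulator-Rag complex, which holds the kinase mTORC1 at the lysosome, and folliculin with its partners, which act on the Rag proteins, 1 of 13 fell (Fnip2, a partner of folliculin, -0.32), 1 rose (Rraga, 0.19) and 11 did not pass, with Tfe3 at 0.00 and Mitf at 0.09. Atp6v0d2, Mcoln3 and Tfec had too few counts to be tested.

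The 4 lower DEGs among these genes were Acp5, Mcoln2, Slc11a1 and Dnase2a. Acp5, a tartrate-resistant phosphatase of osteoclasts and macrophages, was at 14.0, 13.5 and 12.6 CPM with GFP and 4.81, 5.29 and 6.30 CPM with Ezh2-Y726D (-1.30, SE 0.11, edgeR adjusted P = 4.01e-10). Slc11a1, a metal transporter of phagosomes in myeloid cells, was at 17.5, 17.5 and 14.1 CPM against 8.49, 8.97 and 8.54 CPM (-0.96, SE 0.094, edgeR adjusted P = 4.16e-09). Both separated fully. Mcoln2, a relative of Mcoln1 found mostly in immune cells, was at 2.77, 2.97 and 2.99 CPM with GFP and 1.32, 1.03 and 1.36 CPM with Ezh2-Y726D (-1.19, SE 0.22, edgeR adjusted P = 1.03e-04). Dnase2a, which degrades DNA taken up by phagocytes, was at 13.4, 11.4 and 14.6 CPM against 9.66, 7.79 and 8.51 CPM (-0.60, SE 0.10, edgeR adjusted P = 5.56e-05). Neither overlapped between the groups. Dnase2a lies just past the threshold and was under 1.5-fold without GFP replicate 1 (-0.56) or 3 (-0.56) and without Ezh2-Y726D replicate 2 (-0.54) or 3 (-0.58). The higher DEG was Lamp5, the neuronal relative of Lamp1, at 42.3, 48.6 and 44.4 CPM with GFP and 79.1, 84.8 and 76.1 CPM with Ezh2-Y726D (0.85, SE 0.058, edgeR adjusted P = 4.13e-12). The 6 amacrine cell markers, all higher, had sums of 931 to 1006 CPM against 1451 to 1500.0 CPM, and their part in the levels of Lamp5 and the pump genes was not tested.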

How the data were processed

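RNA of sorted CD90.2-positive retinal cells was sequenced from 6 libraries made with a stranded total RNA kit, 3 with GFP and 3 with Ezh2-Y726D, all analysed 3 days after crush. The authors deposited 1 table of raw read counts per gene, with no normalization; their processing notes name STAR 2.7.0d and GRCm38, and the counting program, its strand setting and the annotation are not given in the sources used here. Without the strand setting, reads of overlapping genes cannot be assigned with certainty, and 10 of the 37 genes share over 5% of their exonic bases with another gene. These are Ctsa, Ctsb, Ctsd, Ctsl, Lamp1, Glb1, Hexa, Idua, Npc1 and Sgsh. Among them, Sgsh shares 21.6% with Card14 and Lamp1 9.31% with Grtp1. Of 32371 identifiers, 32325 were paired with a symbol and 32342 with a GENCODE vM21 model. Columns were assigned by the group and number in their names.

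Counts were analysed in R 4.3.3 with edgeR 4.0.16 (limma 3.58.1): filterByExpr with its defaults (minimum count 10, minimum total 15), TMM scaling, and the quasi-likelihood test of Ezh2-Y726D against GFP over 18138 genes, with Benjamini-Hochberg adjustment over all of them. The threshold was an adjusted P under 0.05, with a fold change over 1.5 for DEGs, as in the study, whose main text names no tool. The common biological coefficient of variation was 0.044. The script was tested on simulated counts. No source says that replicates came from separate animals, so P values measure the spread between these libraries, which may be technical; with 3 libraries a group, single genes were tested only through this fit across genes. Libraries of 1 group differed beyond counting error (chi-square per degree of freedom 1.43 to 3.08), so none was taken as a duplicate.

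Alternatives were other scalings, filters, thresholds, DESeq2 1.42.0, the replicate number as a block and the leaving out of each library. Values in every library are printed for the myeloid genes, the DEGs among the 37 genes and a set of widely known members; of the further lysosomal genes, up to 4 DEGs per direction are named, and any further gene was named after its value was seen. One further gene that was to be named is not reported here. The members, classes, gene lists and markers were chosen with earlier results of these data known. Promoters are RefSeq entries matched by symbol. Protein sequences were not used here.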

Additional observations from a re-analysis of the deposited data

How the results depend on the processing

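The main limit is scaling. With library totals in place of TMM, which count the ribosomal RNA gene CT010467.1, the median over all genes tested moved from 0.00 to 0.49, no lysosomal gene of the 37 or of the further list was a DEG (0 lower and 0 higher), and the medians became 0.18 for the 37 genes and 0.30 for the widely expressed genes, both still below that shift. Under these totals the log2 fold change changed sign for Ctsa (0.088), Ctsc (0.025), Ctsh (0.026), Ctso (0.44), Lamp1 (0.042), Lamp2 (0.31), Cd63 (0.35), Gla (0.28), Glb1 (0.18), Npc1 (0.42), Scarb2 (0.44), Tpp1 (0.39), Neu1 (0.46), Manba (0.31), Naglu (0.15), Sgsh (0.18) and Tfeb (0.30). Totals without that gene gave an overall median of -0.02 and the same counts of DEGs, with only Ctsf (-0.00043) changing sign.

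With no fold change threshold, 22 of the 37 genes were lower and 2 higher, and 24 and 16 of the further genes; at 2-fold, 1 of the 37 and 2 of the further genes were lower and 0 further genes higher. Leaving out each library in turn gave 10 to 11 lower DEGs among the 37 genes and 3 to 4 among the further genes, medians of -0.39 to -0.31 for the 37 genes and -0.24 to -0.16 for the widely expressed, and ranges across 0 for Ctsf (-0.013 to 0.055), Ctsk (-0.31 to 0.31) and Neu1 (-0.095 to 0.013). Without the GFP libraries rich in ribosomal RNA, an alternative chosen after seeing the data (as was counting Grn as enriched, which gave a median of -0.20 for the widely expressed genes), the median of the 37 genes was -0.40, and Ctsf (-0.021) and Smpd1 (-0.061) changed sign. With no filter 9 of the 37 genes were lower DEGs, since Ctsb and Man2b1 fell just under 1.5-fold (both -0.58), and with at least 10 counts in every library 10 were. Cd63 also lost its call with no filter (adjusted P = 0.079) and in DESeq2 (0.086), as did Mcoln1 in DESeq2 (0.0635); all 11 DEGs were DEGs in DESeq2 too. The cause of these changes was not tested.

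With the replicate number as a block, 11 of the 37 genes were again lower DEGs and 3 of the further genes, Dnase2a (-0.57) being under 1.5-fold, and the one changed call among the 37 was Tpp1 (-0.13, adjusted P = 0.0351). Deviations of same-numbered libraries correlated at 0.127, 0.0475 and 0.0217, and Ezh2-Y726D replicate 3 correlated best with GFP replicate 2 (0.0293), so the numbers were not taken as pairs. Depth limits Ctsk most; the other 36 genes had at least 73 counts in every library, but among the less abundant ones Gla (SE 0.091), Tfeb (0.096) and Manba (0.099) did not pass at estimates near that of Lamp2 (SE 0.039), which did.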
